A study of Homo sapiens with 12 samples.

Results

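The genes described here are the carriers that bring sugars, lactate and amino acids across cell membranes. They were taken from the deposited count table as every row whose symbol belongs to 1 of 10 solute carrier (SLC) families, namely SLC1, SLC2, SLC3, SLC5, SLC6, SLC7, SLC16, SLC36, SLC38 and SLC43. The rule used names only and found 99 genes among 57500. RNA abundance was measured by sequencing of total RNA after removal of ribosomal RNA, in 4 groups of 3 biological replicates each. The first pair of groups is SW480, a colorectal cancer line from a primary tumour, and SW620, a line from a metastasis of the same patient, both untreated and grown in DMEM. The second pair is PEO4, an ovarian cancer line grown in RPMI 1640, kept in control medium or given recombinant human TGFbeta (TGF-β) at 10 ng/mL for 6 days. All media held serum and antibiotics. Each line is 1 culture-adapted line, so SW620 against SW480 compares 2 lines, not metastasis with primary tumour at large, and the replicates measure the spread between cultures of a line.

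Sugar carriers come in passive and sodium-driven forms. The SLC2 family (GLUT) lets glucose, fructose and related sugars move down their gradients, with SLC2A1 and SLC2A3 as the common glucose carriers of growing cells, and the SLC5 family uses the sodium gradient to import glucose, inositol and vitamins. Lactate leaves and enters cells with protons through the SLC16 family (MCT), whose members SLC16A1 and SLC16A3 need the chaperone basigin (BSG) to reach the surface. Amino acids cross by exchange or by sodium-driven uptake. SLC1A5 and the SLC38 family import small neutral amino acids such as glutamine, and SLC7A5, joined to the heavy chain SLC3A2, exchanges intracellular amino acids for leucine and other large neutral ones. Many of these genes respond to amino acid supply, growth signals and oxygen, and cancer cells often carry high levels of SLC2A1, SLC1A5 and SLC7A5.

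Library totals ran from 14531420 to 22028956 counts, and the carriers took 0.553 to 1.28% of them. A count of 3, used here as the floor of detection, equals 0.136 to 0.206 CPM, the usual unit of counts scaled by library total. Levels below are CPM scaled by TMM factors over all 12 libraries unless stated otherwise. Replicate 2 of both SW lines stood apart, with carrier levels summing to 8486 CPM (SW480) and 5455 CPM (SW620), against 11520 and 12640 CPM in the other SW480 libraries and 8454 and 10430 CPM in the other SW620 libraries. SW620 replicate 3 held transcripts of PEO4 genes at 1.39% of their PEO4 level by 2 genes, and at 1.27% by a wider set of 18 genes chosen after the data were seen. The same share was at most 0.249% in the other SW libraries, whichever set was used. Both sets held only genes with at most 3 counts in each SW480 library, and the wider set also in SW620 replicates 1 and 2. The low share in those libraries was thus largely set by the choice of genes. The 2 genes were not limited in SW620 and had 2, 0 and 42 counts in its replicates 1, 2 and 3. The share by these 2 genes is called carry-over below, and the source of the transcripts was not tested. The intestinal regulator CDX2 stood at 18.5 and 18.7 CPM in SW480 and SW620 and at 0.0559 CPM in PEO4 control. PAX8, of the Mullerian lineage, stood at 559 CPM in PEO4 control and at 43.4 and 46.6 CPM in SW480 and SW620. The 7 Mullerian markers summed to 5350 to 8990 CPM in PEO4 control, 108 to 126 CPM in SW480 and 135 to 201 CPM in SW620. In PEO4 control most of the sum was MUC16 (5713 CPM). Among them SOX17 was lower in PEO4 control (1.60 CPM) than in SW480 and SW620 (2.53 and 3.08 CPM). FOLR1 was at 12.7 CPM in PEO4 control, between SW480 (3.41 CPM) and SW620 (16.8 CPM). The mature colon markers KRT20, CDX1 and GPA33 were under 1 CPM in both SW lines. Of 5 colorectal markers tested between the lines, 3 were called higher in SW620 and none lower, namely VIL1 (log2 3.01), CDH17 (2.61) and LGALS4 (1.55). The sum of all 8 was at 131 to 183 CPM in SW480 and 289 to 478 CPM in SW620. In PEO4 control this sum was at 132 to 169 CPM, within the SW480 range, so it did not set PEO4 apart from SW480. Most of it there was EPCAM (147 CPM, against 112 CPM in SW480), and 5 of the 8 stayed at the floor. Summed markers of leukocytes (5 genes) lay between 1.24 and 2.68 CPM in SW480 and between 1.62 and 14.4 CPM in SW620, and those of stroma (6 genes) between 4.43 and 5.2 CPM and between 8.98 and 18.8 CPM. In SW480 and in SW620, 1 of the 5 leukocyte markers stayed at the floor, and in SW480 2 of the 6 stromal ones did. The part of these markers, the colorectal ones included, in the differences between the lines was not tested.

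Of the 99 carriers, 72 reached a mean of 1 CPM in at least 1 group and 47 did so in every group. SW480 had 65 carriers at this level, SW620 had 59, PEO4 control 57 and PEO4 with TGF-β 54. These counts depend on the scaling, and with total-count scaling they were 65, 63, 55 and 54 in the same order. At 100 CPM or more stood 14 carriers in SW480, 19 in SW620, 14 in PEO4 control and 14 in PEO4 with TGF-β. No library held more than 3 counts of 11 carriers. Among them were the glutamate carrier SLC1A6, the sugar carrier SLC2A7, the proton-coupled amino acid carriers SLC36A2 and SLC36A3, the choline carrier SLC5A7, the monocarboxylate carrier SLC5A8, the glycine carrier SLC6A5, the neutral amino acid carrier SLC6A19, and SLC7A3 and SLC7A13. SLC1A6, SLC6A5 and SLC7A13 had 0 counts in all 12 libraries, which allows up to the floor of 3 counts in each.

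Levels of different genes were compared as mean CPM per kilobase of exon. On this scale the glutamine carrier SLC1A5 ranked first in SW480 (484 CPM per kb) and SW620 (252 CPM per kb). The leucine exchanger SLC7A5 ranked second in both lines, at 345 and 240 CPM per kb. In PEO4 the order of these 2 was the other way round, with SLC7A5 at 330 and 444 CPM per kb in control and TGF-β libraries and SLC1A5 at 154 and 151 CPM per kb. The spread of SW620 libraries covered both leading genes, so their order there was within the replicate error. The glucose carrier SLC2A1 held rank 4 in SW480 and rank 3 in each other group. Other ranks differed between groups. SLC2A3, the high-affinity glucose carrier of neurons and many tumours, held rank 3 in SW480 (283 CPM per kb), 13 in SW620 (24.8 CPM per kb) and 20 in both PEO4 groups. SLC38A5 held rank 6 in SW620, 14 in SW480 and 45 in both PEO4 groups. SLC16A5 (MCT6), a carrier of the SLC16 family, held rank 4 in PEO4 control at 85.3 CPM per kb, and stood at 16.1 and 13.1 CPM per kb in SW480 and SW620.

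**Figure D1:**
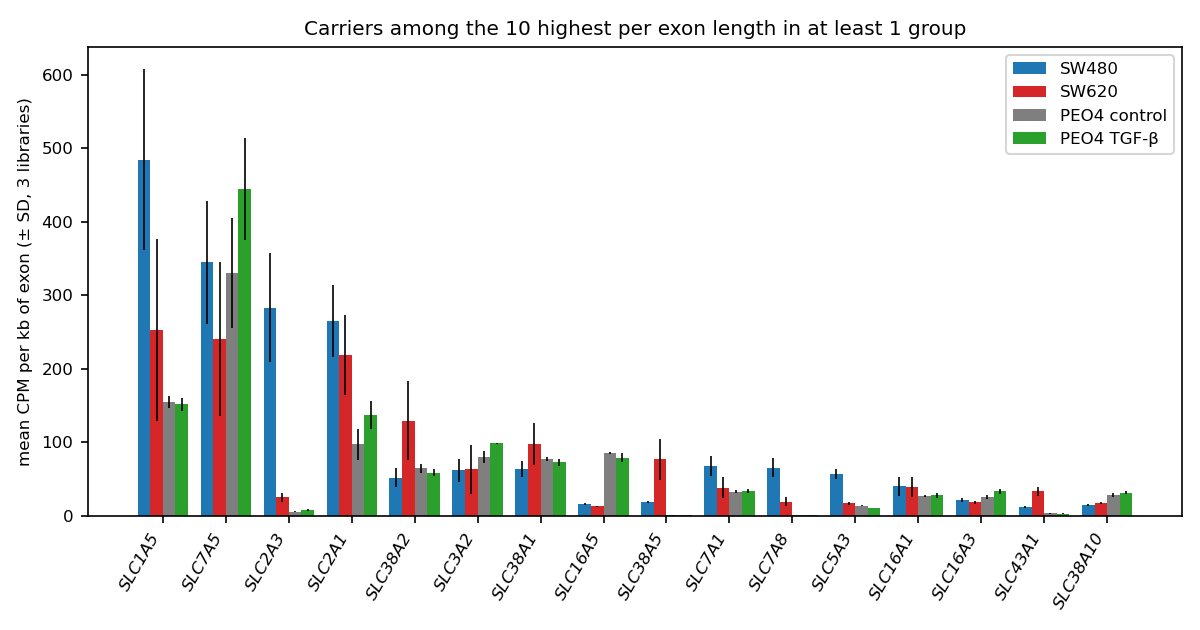
Mean level in CPM per kilobase of exon (bars, ± SD over 3 libraries) for the 16 carriers that ranked among the 10 highest in at least 1 group, coloured by group. SLC1A5 leads both SW lines and SLC7A5 leads both PEO4 groups, while SLC2A3 is tall in SW480 alone and SLC16A5 is highest in PEO4.

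The first comparison set SW620 against SW480, the 2 lines of 1 patient. Of 69 carriers with enough counts to test, 27 passed a threshold of 0.05 on the p-value of edgeR's quasi-likelihood test after Benjamini-Hochberg adjustment over 20941 genes. Of these, 11 were higher in SW620 and 16 lower. The carriers' share called was 39.1%, against 30.5% of all genes tested (13.5% higher and 17.0% lower), a share near that background. Their median log2 fold change was -0.22, against 0.03 over all genes tested. The 30 carriers that were not tested had too few counts in both lines. In bulk RNA, fewer cells with a transcript and less of it per cell cannot be told apart. By family, 5 of 11 tested SLC2 members were lower and 1 higher, and in SLC7 3 of 9 were lower and 1 higher. In SLC1, 2 of 6 were lower and 1 higher. The SLC38 and SLC43 families had 4 of 10 and 2 of 3 tested members higher and none lower. The sums over families followed this, with SLC2 at 3102 ± 683 CPM (SD, n = 3) for SW480 and 1243 ± 284 CPM for SW620, and SLC38 at 1231 ± 188 CPM and 2405 ± 747 CPM. SLC43 summed to 74.1 ± 8.53 and 279 ± 72.4 CPM. The sums are a description and were not tested.

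**Figure D2:**
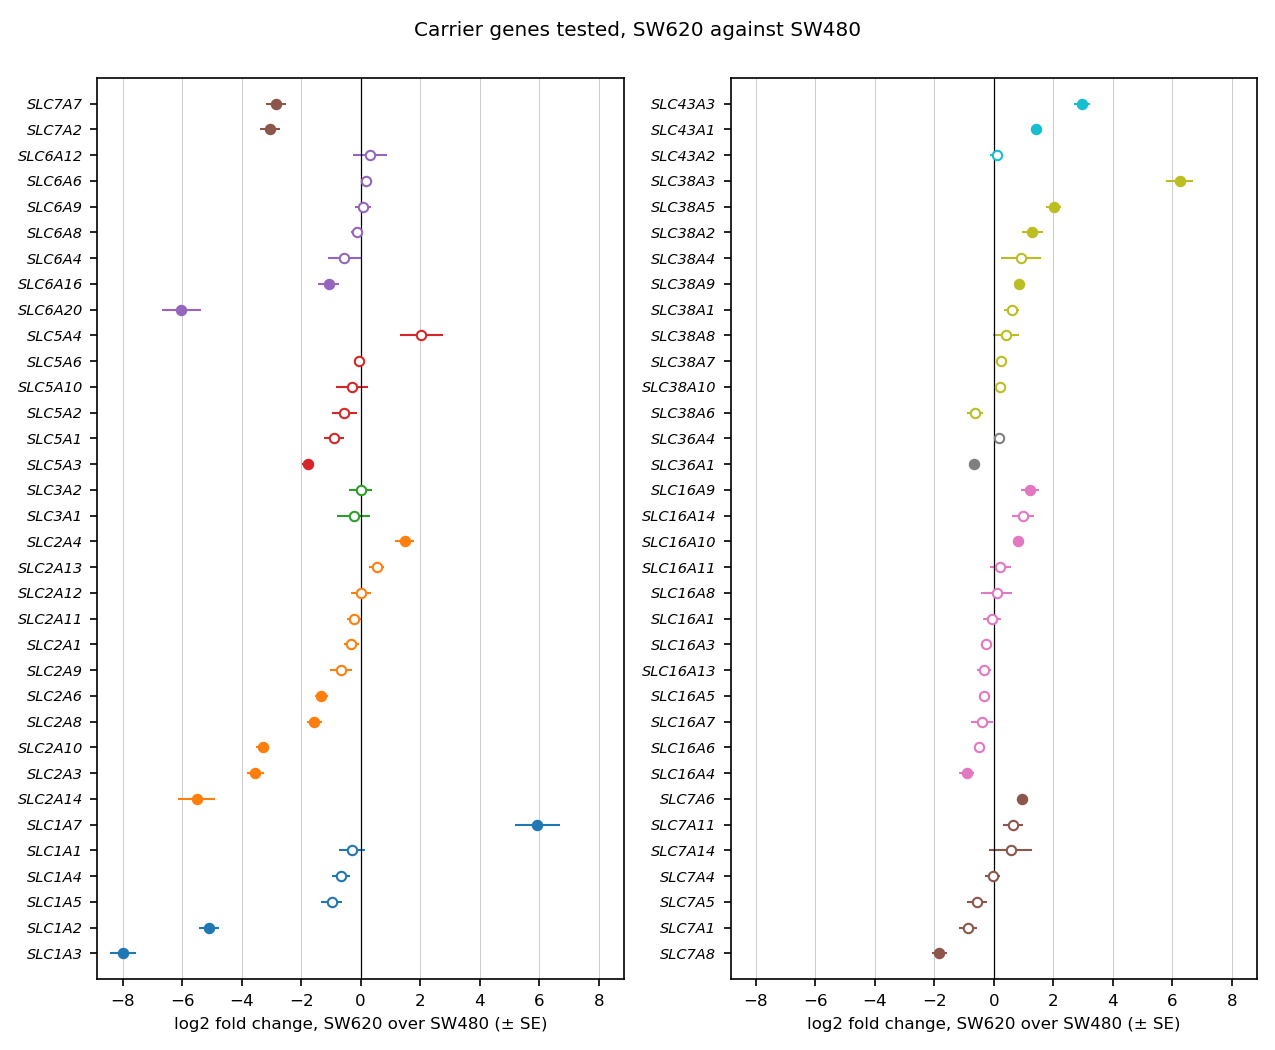
Log2 fold change of SW620 over SW480 (x axis, ± SE) for 68 of the 69 tested carriers, grouped and coloured by SLC family; filled points passed the threshold in edgeR and open points did not. The filled SLC2 points lie to the left of 0 except SLC2A4, and all filled SLC38 and SLC43 points lie to the right.

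Among the glucose carriers, SLC2A3 (chr12:7919230-7936275, minus strand, GRCh38) stood at 1896, 1228 and 2105 CPM in the 3 SW480 libraries and at 148, 121 and 189 CPM in SW620. Every SW480 library lay far above every SW620 library. The log2 fold change was -3.54 ± 0.28 (SE), an 11.7-fold lower level in SW620, with an edgeR adjusted p of 2.92e-05. SLC2A14, a near-identical copy of SLC2A3 on the same chromosome, showed 8.38, 8.13 and 9.23 CPM in SW480 and 0, 0.382 and 0.193 CPM in SW620. Its call (log2 -5.51, edgeR adjusted p 0.000202) is uncertain, since reads of the pair can be split between them. SLC2A1 (chr1), by contrast, had overlapping libraries, at 1296, 1000 and 1460 CPM in SW480 and 1085, 755 and 1260 CPM in SW620. Its log2 fold change was -0.31 ± 0.25, with an edgeR adjusted p of 0.393. SLC2A10, a carrier of the secretory pathway, was at 24.2, 18.7 and 24.1 CPM in SW480 and 2.16, 2.02 and 2.79 CPM in SW620. These groups do not overlap, and the log2 fold change was -3.29 ± 0.22 (adjusted p 1.02e-05, edgeR). SLC2A8, an intracellular member, was lower in SW620 too, at 3.44 ± 0.599 CPM against 9.87 ± 1.59 CPM (SD, n = 3). SLC2A6, a lysosomal member, was at 28.2 ± 3.58 CPM in SW480 and lower in SW620 at 11.6 ± 2.77 CPM. The only SLC2 member called higher in SW620 was SLC2A4, the insulin-responsive carrier of muscle and fat, at a low 5.77 ± 0.805 CPM against 2.02 ± 0.505 CPM. SLC2A4 and SLC2A6 fell outside the rule for naming genes and are named after their values were seen.

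Of the sodium-driven sugar family, 1 of 6 tested members passed the threshold. It was SLC5A3 (chr21:34073570-34106262, plus strand), the importer of myo-inositol, a sugar alcohol that cells use as an osmolyte and lipid precursor. Its levels were 744, 576 and 647 CPM in SW480 and 219, 181 and 186 CPM in SW620. The 3 SW480 libraries all lay above the 3 of SW620, and the log2 fold change was -1.78 ± 0.19 (edgeR adjusted p 0.000162). SLC5A1, the intestinal sodium-glucose carrier, was at only 3.62, 2.52 and 3.25 CPM in SW480 and 1.91, 1.53 and 1.69 CPM in SW620. Its libraries do not overlap, yet it missed the threshold in edgeR (log2 -0.90 ± 0.32, adjusted p 0.0653), and passed with DESeq2 at 0.0469. SLC5A3 also fell in PEO4 under TGF-β (below), so the 250 bases before its start site are shown as RefSeq gives them (GRCh38.p14, chr21:34073328-34073577, plus strand). Capitals mark matches on either strand to any of the 6 short motifs searched, here GCGTG, at -140 and -63 from the start.
SLC5A3: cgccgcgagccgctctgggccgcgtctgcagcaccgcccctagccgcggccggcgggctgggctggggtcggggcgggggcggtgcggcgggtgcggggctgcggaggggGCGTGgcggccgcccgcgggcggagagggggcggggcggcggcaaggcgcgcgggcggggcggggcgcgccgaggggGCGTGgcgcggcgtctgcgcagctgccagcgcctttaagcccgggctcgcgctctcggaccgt

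The lactate carriers of highest level did not pass the threshold between the SW lines. SLC16A1 (MCT1), which takes lactate in or lets it out, stood at 242, 136 and 263 CPM in SW480 and 228, 129 and 272 CPM in SW620. Replicate 2 was lowest in each line, and the log2 fold change was -0.06 ± 0.31 (edgeR adjusted p 0.913). SLC16A3 (MCT4), the exporter of glycolytic cells, was at 199, 170 and 207 CPM and 161, 145 and 186 CPM, also overlapping (log2 -0.26 ± 0.17, edgeR adjusted p 0.283). Of 13 SLC16 members tested, 4 passed, and those described here carry other cargo or have no settled cargo. SLC16A4 was lower in SW620 at 7.90 ± 2.36 CPM against 14.6 ± 0.507 CPM. The carnitine and creatine carrier SLC16A9 was higher at 4.97 ± 1.00 CPM against 2.07 ± 0.441 CPM, and SLC16A10, an aromatic amino acid carrier, was higher at 32.3 ± 4.51 CPM against 18.0 ± 2.08 CPM. The call of SLC16A4 was lost in 7 and that of SLC16A9 in 3 of 17 alternative settings, without SW480 replicate 1 (adjusted p 0.0869 and 0.073) and without SW620 replicate 1 (0.0814 and 0.0543) in both cases and without SW480 replicate 3 for SLC16A4 (0.0634).

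The SLC1 family separated the lines by members that were nearly absent from 1 of them. SLC1A3 (chr5:36606355-36688334, plus strand), a glutamate and aspartate importer known from glia, was at 33.6, 23.4 and 36 CPM in SW480. In SW620 its 3 libraries held 1, 5 and 1 counts, or 0.0491, 0.273 and 0.0482 CPM. The log2 fold change of -7.98 ± 0.44 was the lowest of all tested carriers (edgeR adjusted p 5.14e-06). SLC1A2, the other main glial glutamate importer, was at 10.0, 8.69 and 10.3 CPM in SW480 and 0.393, 0.218 and 0.241 CPM in SW620 (log2 -5.08 ± 0.34, edgeR adjusted p 1.08e-05). SLC1A7, a glutamate carrier known from retina, went the other way, with 1, 0 and 1 counts in SW480 and 28, 47 and 78 counts in SW620. Since SW480 was at the floor, its level was at least 16.3-fold higher in SW620, taking 3 counts in each SW480 library (edgeR adjusted p 0.000395). Summed neuron and glia markers (4 genes) were at 5.42 to 7.57 CPM in SW480 and 3.09 to 4 CPM in SW620, mostly from SNAP25, with 1 of the 4 at the floor in each line. Their part in these 3 differences was not tested.

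SLC1A5, the carrier with the highest level per length in the SW lines, stood at 1628, 1197 and 2015 CPM in SW480 and 765, 470 and 1284 CPM in SW620. The highest SW620 library lay above the lowest SW480 library. Its log2 fold change of -0.98 ± 0.35 missed the threshold in edgeR (adjusted p 0.066) and passed it in 9 of 17 alternatives, among them DESeq2 (0.0153) and leaving out SW620 replicate 3 (log2 -1.41, 0.00705). An annotated antisense gene covers 23.4% of its exon bases, which adds uncertainty to its counts. SLC1A4, a serine, alanine and cysteine exchanger, was at 98.5, 68.4 and 108 CPM in SW480 and 67.3, 31.6 and 78.2 CPM in SW620, with overlapping libraries (log2 -0.67 ± 0.31, edgeR adjusted p 0.14). Without replicate 2 of both lines it passed, at 0.0189.

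All 4 SLC38 calls were higher in SW620. SLC38A2 (SNAT2; chr12), a glutamine and alanine importer whose gene is known to respond to amino acid lack, was at 366, 244 and 408 CPM in SW480 and 1055, 441 and 1067 CPM in SW620. Replicate 2 was the lowest library in both lines, and the lowest SW620 library still lay just above the highest of SW480. The log2 fold change was 1.30 ± 0.34 (edgeR adjusted p 0.0192), and the call was lost without SW480 replicate 1 (0.0589), SW480 replicate 2 (0.0652) or SW620 replicate 1 (0.0893). SLC38A5 (SNAT5; chrX), which exchanges glutamine, histidine and serine for protons, was at 77.1, 68.7 and 76.8 CPM in SW480 and 292, 202 and 427 CPM in SW620. The groups lie well apart, a 4.03-fold difference (log2 2.01 ± 0.26, edgeR adjusted p 0.000427). SLC38A3 (SNAT3; chr3:50205246-50221486, plus strand), the glutamine carrier of liver and kidney, was at 0.545, 0.841 and 0.155 CPM in SW480 and 32.9, 32.4 and 55.0 CPM in SW620. This gene had the highest log2 fold change of all tested carriers, 6.24 ± 0.44 (edgeR adjusted p 1.52e-05). SLC38A9, a lysosomal arginine sensor rather than a bulk importer, was higher in SW620 at 30.8 ± 2.61 CPM against 16.8 ± 0.764 CPM (SD, n = 3). SLC38A1 (SNAT1), the other abundant glutamine importer, stood at 700, 507 and 686 CPM in SW480 and 1126, 647 and 1154 CPM in SW620. Its libraries overlap through SW620 replicate 2, and it missed the threshold in edgeR (log2 0.60 ± 0.26, adjusted p 0.119). It passed without that library (log2 0.87, adjusted p 0.0094).

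Since SLC38A2 and SLC38A5 were both higher in SW620, the 250 bases before their start sites are shown side by side, from RefSeq (GRCh38.p14). SLC38A2 lies at chr12:46372774-46373023 and SLC38A5 at chrX:48470261-48470510, both on the minus strand. Capitals mark matches on either strand to any of 6 motifs. The motifs were the E-box CACGTG, the amino acid response core TGATGNAA, the antioxidant response core TGACNNNGC, the hypoxia response cores ACGTG and GCGTG, of which the first lies within the E-box, and the SMAD element CAGACA.
SLC38A2: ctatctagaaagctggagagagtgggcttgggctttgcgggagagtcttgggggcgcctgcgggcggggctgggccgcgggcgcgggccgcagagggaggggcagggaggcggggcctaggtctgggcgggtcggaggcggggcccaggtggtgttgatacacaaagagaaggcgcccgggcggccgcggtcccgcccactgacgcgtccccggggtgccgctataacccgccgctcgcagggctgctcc
SLC38A5: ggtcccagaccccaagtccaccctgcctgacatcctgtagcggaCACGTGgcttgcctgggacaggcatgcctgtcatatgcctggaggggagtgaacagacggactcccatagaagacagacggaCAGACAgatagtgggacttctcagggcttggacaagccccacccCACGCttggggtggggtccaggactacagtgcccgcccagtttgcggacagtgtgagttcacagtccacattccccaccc
The SLC38A5 window holds 1 CACGTG at -206, 1 GCGTG at -80, read on the opposite strand, and 1 CAGACA at -124. None of the 6 motifs is in the SLC38A2 window, which says nothing of sites outside it. Promoter entries were found for 74 of the 99 carriers, 106 entries in all. CACGTG occurred in 11.3% of these windows and in 6.34% of all 35116 windows of the same length, GCGTG in 43.4% and 32.2%, and ACGTG in 23.6% and 18.5%. CAGACA occurred in 12.3% and 13.6%, TGACNNNGC in 7.55% and 10.9%, and TGATGNAA in 2.83% and 3.14%. These are counts of letters and were not tested.

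The SLC7 light chains and their heavy chain SLC3A2 form exchangers of large neutral, cationic and sulfur amino acids. The leucine exchanger SLC7A5 (LAT1) was at 1717, 1205 and 1985 CPM in SW480 and 1112, 658 and 1651 CPM in SW620. These ranges overlap, with a log2 fold change of -0.56 ± 0.33 (edgeR adjusted p 0.252). Leaving out SW620 replicate 3 gave -0.91 and an edgeR adjusted p of 0.0492. At the carry-over of 1.39%, PEO4 transcripts would make up 1.27% of the SLC7A5 counts of that library. Their part in the change was not tested. SLC7A8 (LAT2), a second light chain for neutral amino acids, was at 406, 312 and 459 CPM in SW480 and 105, 82.3 and 152 CPM in SW620. All SW480 libraries lay above all SW620 libraries, and the log2 fold change was -1.83 ± 0.25 (edgeR adjusted p 0.000639). SLC7A7, the light chain that exports cationic amino acids in gut and kidney epithelium, was at 14.4, 8.35 and 15.9 CPM in SW480 and 1.77, 2.40 and 1.30 CPM in SW620 (log2 -2.85 ± 0.34, edgeR adjusted p 0.000285). SLC7A2, a cationic amino acid importer of the arginine pathway, was at 17.1, 15.8 and 21.1 CPM in SW480 and 2.40, 1.09 and 3.18 CPM in SW620 (log2 -3.04 ± 0.34, edgeR adjusted p 0.000202). PEO4 reads would account for 65.9% of the 66 SLC7A2 counts of SW620 replicate 3 at the carry-over of 1.39%, and a fit that left this library out gave log2 -3.37 (edgeR adjusted p 7.44e-05). For SLC2A10 the same reckoning gives 11.1% of that library's counts, and a log2 fold change of -3.44 without it. SLC7A6, a light chain for arginine and leucine, was the 1 SLC7 member called higher in SW620, at 134 ± 15 CPM against 68.4 ± 7.32 CPM, with uncertain counts because SLC7A6OS on the opposite strand covers 44.4% of its exon bases. SLC7A11, the cystine importer that feeds glutathione, was at 60.3, 43.8 and 57.9 CPM in SW480 and 122, 40.9 and 94.4 CPM in SW620. Its ranges overlap through replicate 2, and it passed without replicate 2 of both lines (log2 0.63 ± 0.34 and edgeR adjusted p 0.199 with all libraries, 0.86 and 0.00719 without). SLC3A2 itself was at 346, 230 and 381 CPM in SW480 and 336, 150 and 492 CPM in SW620, with an edgeR adjusted p of 0.995. SLC7A1, the main arginine importer of growing cells, was at 578, 397 and 585 CPM and 350, 165 and 359 CPM. It missed the threshold at an adjusted p of 0.0583 in edgeR.

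Both called members of SLC43 were higher in SW620. SLC43A1 (LAT3), which lets leucine and other branched chain amino acids pass without a heavy chain, was at 41.3, 38.8 and 46.4 CPM in SW480 and 115, 95.4 and 140 CPM in SW620. The libraries lie apart, with a log2 fold change of 1.43 ± 0.18 (edgeR adjusted p 0.00032). SLC43A3, known as a purine base carrier, was at 19.3, 14 and 22.1 CPM in SW480 and 150, 100 and 193 CPM in SW620, a 7.80-fold difference (edgeR adjusted p 5.62e-05), though AP000781.2 shares 29.9% of its exon bases. SLC36A1, the proton-coupled carrier that lets small amino acids out of lysosomes, was 1.59-fold lower in SW620, at 30.9 ± 0.649 CPM against 48.1 ± 3.78 CPM. Its call was lost without SW480 replicate 1 (edgeR adjusted p 0.0595) and without SW620 replicate 1 (0.0501).

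In the SLC6 family, 2 of 7 tested members passed and both were lower in SW620. SLC6A20, a proline importer of gut and kidney, had 95, 91 and 85 counts in SW480 and 1, 3 and 0 counts in SW620. Since SW620 was at the floor, SLC6A20 was at least 31.2-fold lower there, taking 3 counts in each SW620 library (edgeR adjusted p 0.000156). SLC6A16, an orphan member, had 3.51 ± 0.759 CPM in SW480, and SW620 had 1.71 ± 0.353 CPM (edgeR adjusted p 0.0435). This call was lost in 10 of 17 alternatives, among them each of 5 of the 6 single-library omissions, with adjusted p from 0.054 to 0.165 in those 5. The abundant members did not pass. They were the taurine importer SLC6A6 at 91.4 ± 7.80 CPM and 106 ± 8.76 CPM, and the creatine importer SLC6A8 at 192 ± 19.7 CPM and 179 ± 46.1 CPM.

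**Figure D3:**
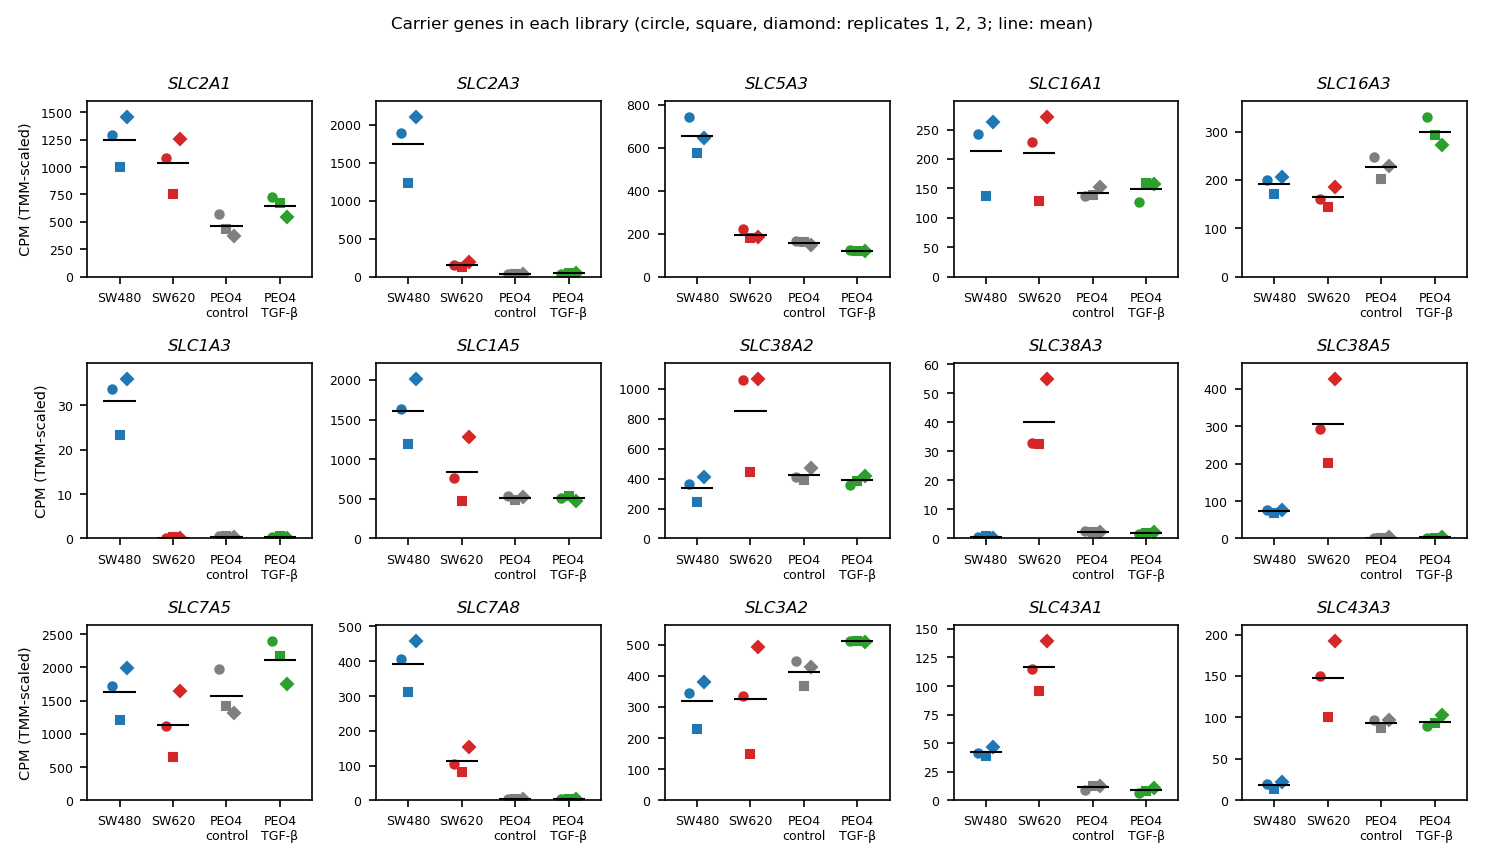
Level of 15 carriers in each library (CPM, linear axis from 0), by group on the x axis, with 1 point per replicate and a line at the mean. SLC2A3, SLC5A3, SLC1A3 and SLC7A8 are high in SW480 against SW620, SLC38A3, SLC38A5, SLC43A1 and SLC43A3 are high in SW620, and replicate 2 (square) is the lowest library of both SW lines for SLC1A5, SLC38A2, SLC7A5 and SLC3A2.

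The second comparison set PEO4 cells given TGF-β against PEO4 in control medium. TGF-β is a cytokine that drives epithelial cells towards a mesenchymal state. Of 59 carriers tested, 6 passed the threshold in edgeR's quasi-likelihood test over 19064 genes, 2 higher and 4 lower with TGF-β. This is 10.2% of those tested, against 2.26% of all genes tested (1.27% higher and 0.991% lower). The median log2 fold change was 0.05, against -0.02 over all genes. The call number was not firm. It was 14 without control replicate 1, 1 without control replicate 2, and 3, 2 and 3 without TGF-β replicates 1, 2 and 3, with 5 without control replicate 3, and 11 with DESeq2. The calls over all genes moved too, to 1080, 72, 128, 130, 223, 233 and 967 in the same order, from 431. SLC7A7 was called in each of these settings, and all 6 genes kept their direction in all 16 alternatives. Summed Mullerian markers (7 genes, none at the floor) were at 5350 to 8990 CPM in control and 3000 to 4770 CPM with TGF-β. Most of this sum was MUC16, at 5713 and 2391 CPM, which was itself not called (edgeR adjusted p 0.0701). Of the 7, 3 (WT1, MSLN and EMX2) were called lower, while PAX8 and SOX17 had log2 fold changes of 0.03 and 0.15. Summed stromal markers were at 230 to 355 CPM and 271 to 375 CPM, nearly all from THY1, with 1 and 2 of the 6 at the floor. The part of these markers in the carriers' changes was not tested.

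**Figure D4:**
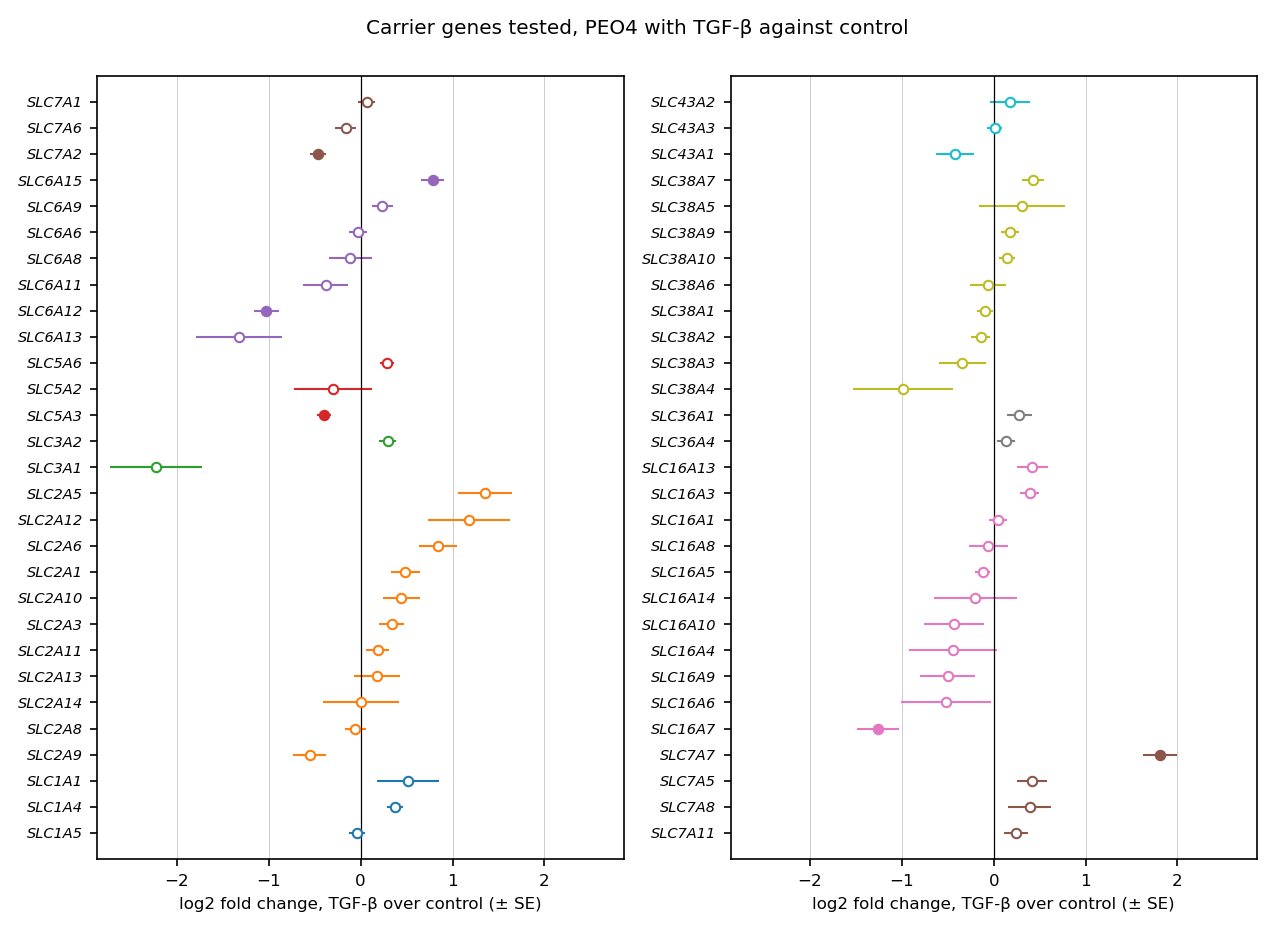
Log2 fold change of PEO4 with TGF-β over control (x axis, ± SE) for 58 of the 59 tested carriers, grouped and coloured by SLC family; filled points passed the threshold in edgeR. The 6 filled points are SLC7A7 and SLC6A15 to the right of 0 and SLC16A7, SLC6A12, SLC7A2 and SLC5A3 to the left.

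SLC7A7 (chr14:22773222-22829820, minus strand), the cationic amino acid exporter described above, was at 2.54, 2.32 and 2.23 CPM in control libraries and 7.75, 7.89 and 9.40 CPM with TGF-β. All treated libraries lay above all controls, a 3.50-fold rise (log2 1.81 ± 0.18, edgeR adjusted p 0.00233). SLC7A7 has 3 start sites in the RefSeq table (GRCh38.p14), all on the minus strand, and the 250 bases before each are shown because it was the carrier with the largest rise. Capitals mark matches to the motifs listed above.
SLC7A7 start 1, chr14:22819792-22820041: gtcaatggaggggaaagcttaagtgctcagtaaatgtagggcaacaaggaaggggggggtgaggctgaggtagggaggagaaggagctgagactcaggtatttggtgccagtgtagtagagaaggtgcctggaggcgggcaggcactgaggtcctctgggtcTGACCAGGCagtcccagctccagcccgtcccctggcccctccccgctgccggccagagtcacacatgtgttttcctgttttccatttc
SLC7A7 start 2, chr14:22815872-22816121: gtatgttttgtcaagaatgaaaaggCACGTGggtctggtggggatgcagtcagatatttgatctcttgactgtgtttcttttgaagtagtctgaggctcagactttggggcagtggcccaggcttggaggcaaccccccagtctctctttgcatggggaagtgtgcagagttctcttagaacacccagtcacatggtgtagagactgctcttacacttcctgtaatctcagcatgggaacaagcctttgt
SLC7A7 start 3, chr14:22815436-22815685: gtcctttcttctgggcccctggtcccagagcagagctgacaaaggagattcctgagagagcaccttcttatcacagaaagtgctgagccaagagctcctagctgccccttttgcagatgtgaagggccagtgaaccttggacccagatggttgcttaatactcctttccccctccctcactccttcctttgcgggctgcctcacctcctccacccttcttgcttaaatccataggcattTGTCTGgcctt
The window of start 1 holds TGACNNNGC at -88, that of start 2 CACGTG at -225, and that of start 3 the SMAD element CAGACA, read on the opposite strand, at -11. Which start PEO4 cells use was not analysed here.

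SLC6A15, a sodium-driven importer of branched chain amino acids and proline known from brain, was at 16.9, 16.7 and 17.4 CPM in control and 25.0, 29.4 and 34.2 CPM with TGF-β. The groups do not overlap, and it rose 1.72-fold (log2 0.78 ± 0.13, edgeR adjusted p 0.0173). The call was lost without control replicate 2 (adjusted p 0.109) or TGF-β replicate 2 (0.0749).

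SLC6A12 (BGT1), which imports betaine and GABA, fell with TGF-β. Its levels were 18.3, 21.5 and 24.8 CPM in control and 10.8, 10.9 and 10.3 CPM with TGF-β, with all treated libraries below all controls (log2 -1.03 ± 0.13, edgeR adjusted p 0.00727). Without control replicate 2 its adjusted p was 0.0517. Its neighbour SLC6A13, a GABA and taurine carrier, was at a low 0.846, 0.656 and 1.5 CPM in control and 0.440, 0.268 and 0.495 CPM with TGF-β, and did not pass (edgeR adjusted p 0.201). SLC16A7 (MCT2), a high-affinity importer of lactate and pyruvate, fell from 15.6, 21.6 and 31.0 CPM to 9.78, 8.64 and 10.4 CPM (log2 -1.26 ± 0.23, edgeR adjusted p 0.0277). The control libraries spread widely, and all lay above the treated ones. SLC7A2, the arginine-pathway importer, fell from 170, 154 and 144 CPM to 108, 122 and 112 CPM, a 1.38-fold drop (edgeR adjusted p 0.0301). SLC5A3, the inositol importer, fell from 167, 160 and 147 CPM to 124, 121 and 117 CPM, a 1.32-fold drop (log2 -0.40 ± 0.08, edgeR adjusted p 0.0327). For these genes the ranges of control and TGF-β libraries lay apart, but the calls of SLC16A7, SLC7A2 and SLC5A3 were each lost when control replicate 2 or any 1 TGF-β library was left out, with edgeR adjusted p between 0.0673 and 0.168, and that of SLC5A3 also without control replicate 3 (0.0528).

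**Figure D5:**
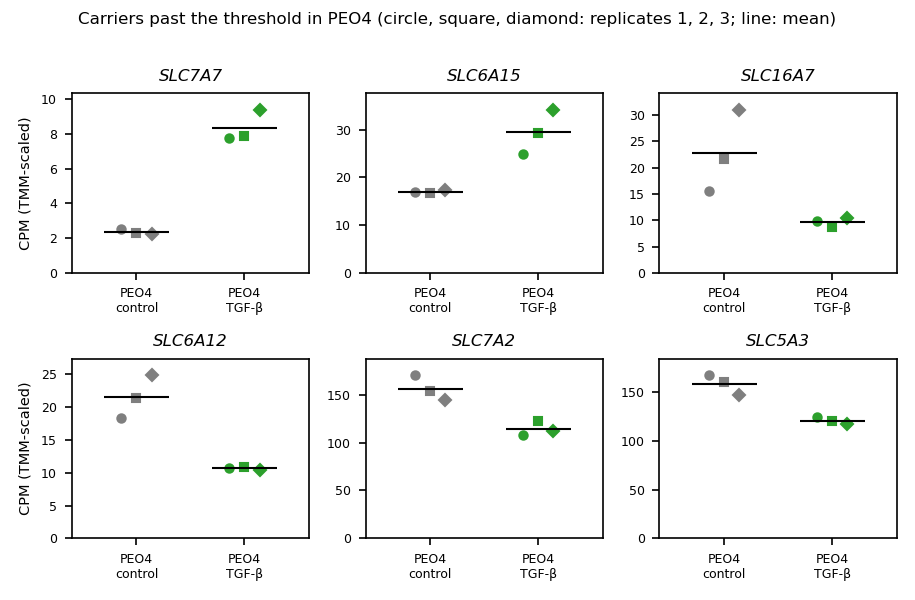
Level of the 6 carriers past the threshold in PEO4 (CPM, linear axis from 0), with 1 point per replicate and a line at the mean, for control and TGF-β. For each gene the 3 control points and the 3 TGF-β points do not overlap, with SLC7A7 and SLC6A15 higher and SLC16A7, SLC6A12, SLC7A2 and SLC5A3 lower with TGF-β.

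The most abundant sugar, lactate and amino acid carriers of PEO4 did not pass the threshold in edgeR. SLC2A1 was at 569, 431 and 375 CPM in control and 727, 668 and 548 CPM with TGF-β. Control replicate 1 overlapped the treated libraries, and the log2 fold change was 0.49 ± 0.16 (edgeR adjusted p 0.168). Leaving out that library gave 0.68 and an adjusted p of 0.0199, and DESeq2 gave 0.036. The lactate exporter SLC16A3 was at 248, 203 and 228 CPM and 331, 294 and 273 CPM, without overlap (log2 0.39 ± 0.10, edgeR adjusted p 0.0968, DESeq2 0.017). SLC1A4 was at 56.3, 47.7 and 55.7 CPM and 71.0, 67.6 and 70.7 CPM, also without overlap (log2 0.38 ± 0.09, edgeR adjusted p 0.0636, DESeq2 0.0174). SLC7A5 was at 1969, 1426 and 1307 CPM and 2403, 2166 and 1752 CPM, with overlapping libraries (log2 0.42 ± 0.17, edgeR adjusted p 0.256). It passed without control replicate 1 (log2 0.63, adjusted p 0.0352) and with no count filter (0.00578). SLC16A3 and SLC1A4 passed without control replicate 1 as well, at 0.0434 and 0.042. SLC3A2, the heavy chain of SLC7A5, was at 446, 367 and 427 CPM and 512, 513 and 508 CPM (log2 0.29 ± 0.09, edgeR adjusted p 0.147). The glutamine importers SLC1A5, SLC38A1 and SLC38A2 had log2 fold changes of -0.04 ± 0.08, -0.10 ± 0.09 and -0.14 ± 0.10, and the lactate carrier SLC16A1 of 0.05 ± 0.10. The fructose carrier SLC2A5 came closest to the threshold among the sugar carriers, at 1.18, 0.775 and 0.932 CPM in control and 2.25, 2.74 and 2.47 CPM with TGF-β (log2 1.35 ± 0.29, edgeR adjusted p 0.0507). SLC2A3 had a log2 fold change of 0.34 ± 0.14 and SLC7A11 of 0.24 ± 0.13, neither past the threshold, and SLC5A1 had too few counts to test. The lowest log2 fold change of the tested carriers was that of SLC3A1, the heavy chain of the renal cystine exchanger, at 0.959, 2.26 and 1.04 CPM in control and 0.385, 0.215 and 0.297 CPM with TGF-β. Its libraries do not overlap, but it missed the threshold (log2 -2.23 ± 0.50, edgeR adjusted p 0.057). Its counts are uncertain, since PREPL on the opposite strand covers 29.4% of its exon bases and AC013717.1 on the same strand 26.9%.

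In the authors' deposited table of the PEO4 comparison, 12 of the 57 carriers with an adjusted p were under 0.05, 7 with higher and 5 with lower levels. Of all genes with an adjusted p, 964 of 17027 were called there, or 5.66%. All 6 edgeR calls were among them. SLC2A1 (log2 0.49), SLC16A3 (0.39), SLC1A4 (0.38), SLC2A5 (1.36) and SLC2A6 (0.84) were added to the higher ones in that table, and SLC3A1 (-2.26) to the lower ones. In the authors' deposited table of the SW comparison, 32 of the 70 carriers with an adjusted p were called, 12 higher and 20 lower in SW620. All 27 edgeR calls were among these 32 carriers. Of all genes with an adjusted p, 7071 of 20639 were called there, or 34.3%.

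SLC7A7, SLC7A2 and SLC5A3 passed the threshold in both comparisons, which share no library. SLC7A2 and SLC5A3 were lower in SW620 than in SW480 (log2 -3.04 and -1.78) and lower with TGF-β than in control (-0.46 and -0.40). SLC7A7 was lower in SW620 (-2.85) and higher with TGF-β (1.81). Whether the size of these effects differs was not tested, since the comparisons concern different lines and media.

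PEO4 and the SW lines differ in tissue and medium, so levels across them are given side by side with no test. SLC6A15 was the 1 carrier at 10 CPM or more in PEO4 control (281 to 336 counts) and with at most 3 counts in every library of SW480, where it had 0. At the carry-over of 1.39%, PEO4 transcripts would make up 95.0% of the 5 counts of SLC6A15 in SW620 replicate 3. SLC6A11, a GABA carrier, was at 6.03 to 11.2 CPM in PEO4 control and at most 0.0561 CPM in any SW library. For SLC6A11 the same reckoning gives 2.4 counts in SW620 replicate 3, which held 0. The reckoning rests on 2 genes with 42 counts in that library. SLC6A12, SLC7A2 and SLC16A7 were likewise highest in PEO4, with control means of 21.5, 156 and 22.7 CPM, against at most 1.30, 21.1 and 2.52 CPM in any SW library. On the other side, SLC7A8 was at most 4.72 CPM in any PEO4 library and at least 82.3 CPM in every SW library. SLC38A5 was at most 4.45 CPM in PEO4 and at least 68.7 CPM in the SW libraries. SLC2A3 was at 31.8 to 52.1 CPM in PEO4, below all SW libraries, and SLC1A2 had 0 counts in all 3 PEO4 control libraries.

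Genes that work with the carriers were described from a list of 73 (partners, users of the same sugars and amino acids, and sensors). Of 65 tested between the SW lines, 13 were higher and 11 lower in SW620, with a median log2 fold change of 0.15. The share called was 36.9%, near the 30.5% of all genes tested (13.5% higher and 17.0% lower), and the counts of its sublists are a description. Basigin (BSG), the chaperone of SLC16A1 and SLC16A3, had 304 ± 65.0 CPM in SW480, and SW620 had 318 ± 113 CPM (edgeR adjusted p 0.947), and CD44, which stabilises SLC7A11 at the surface, was lower in SW620 at 26.0 ± 4.23 CPM against 146 ± 21.5 CPM. Among 9 tested genes of glucose and lactate use, 4 were higher in SW620 and none lower, among them the hexokinases HKDC1 (log2 4.66) and HK2 (1.64) and the polyol pathway enzymes AKR1B1 (5.34) and SORD (0.98). TXNIP, which promotes removal of SLC2A1 from the surface, was higher in SW620 (log2 2.06), as were the sugar-responsive factors MLXIP (0.92) and MLXIPL (0.87) and MYC (0.86). The list of sensing and control genes held 5 higher and 6 lower of 21 tested. The lower ones were SGK1 (-1.47), the arginine sensors CASTOR1 (-2.05) and CASTOR2 (-1.49), the leucine sensor SAR1B (-0.72), and RRAGC (-0.73) and RRAGD (-1.44), GTPases of the lysosomal amino acid response. Of the same GTPases, RRAGB was called higher (0.76) and RRAGA was not called (-0.16, edgeR adjusted p 0.735). Among genes of glutamine and glutamate use, GPT2 was higher (1.19) and GFPT2 lower (-3.21), while the cystine-glutathione genes GCLC and GCLM differed in sign (0.61 and -1.39). In PEO4, 4 of 66 tested passed, or 6.06%, against 2.26% of all genes tested. SGK1, a kinase that keeps several carriers at the surface (log2 1.19), and BCAT1, the branched chain aminotransferase (0.55), were among those that rose with TGF-β, and GLDC, which cleaves glycine, fell (-1.10). The count in PEO4 depended on single libraries, at 12 without control replicate 1 and 2 without control replicate 3 or TGF-β replicate 1. In edgeR's test no gene of the list passed without control replicate 2 or TGF-β replicate 2 or 3, against 9 with DESeq2 and 4 with limma-voom on all 6 libraries.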

How the data were processed

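Total RNA of 12 cell line libraries (4 groups of 3 biological replicates, per the labels) was depleted of ribosomal RNA and sequenced. The submitters' processing notes name Trimmomatic 0.36, STAR 2.5.2b, featureCounts, Subread 1.5.2, DESeq2 and the build GRCh38, and the strand setting and annotation are not given in the sources used here. The authors deposited whole-number counts per Ensembl gene ID, and tables with a log2 fold change and an adjusted p-value per gene, per the file headers. The 12 per-library columns of those tables were not used.

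Each comparison was fitted on its 6 libraries with edgeR 4.0.16 in R 4.3.3 (filterByExpr, TMM scaling, two-sided quasi-likelihood test, Benjamini-Hochberg adjustment over all genes tested, threshold 0.05). Standard errors are |log2 fold change| / √F. Biological variation between replicates (edgeR's common coefficient) came to 0.274 in the SW fit and 0.152 in the PEO4 fit. Positions, exon lengths and overlaps came from GENCODE 29 (GRCh38), though the counting may have used another annotation. Floors cover counting error only, since no molecular identifiers are named. With 3 libraries a group, exact two-sided permutation cannot go below p = 0.1. The fit was tested on simulated data.

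The carriers, lists and tests were chosen with earlier results of these data known. Named are 12 fixed carriers, up to 4 members per family and comparison with the largest change among those past the threshold, at 1 CPM or more and without overlap between groups, the highest carrier per length in each group, and carriers present in PEO4 control or an SW line and at the floor in the other. Other members named were chosen after their values were seen. A few genes that the rule or the lists cover are not reported here. Alternatives were DESeq2 1.42.0, limma-voom (limma 3.58.1), scaling by RLE, upper quartile or total counts, no count filter or a minimum of 10 counts throughout a group, a single model of the 12 libraries, a block for the replicate number, glmTreat against 2-fold, leaving out each library and, added after the data were seen, replicate 2 of both SW lines.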

Additional observations from a re-analysis of the deposited data

How the results depend on the processing

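The 25 SW calls named by rule and the 6 PEO4 calls kept their direction in every alternative run. Of the 25, 16 passed the threshold in all 17 alternatives, and of the 6 none did so in all 16. The SW count lay between 22 and 40 in all alternatives but glmTreat (16, of which 5 higher). Calls over all genes in these settings lay between 4253 and 10667, with 2504 in glmTreat. For PEO4 the count moved to 11 with DESeq2 (7 higher), 16 with no filter (11 higher), 2 with all 12 libraries in 1 model (1 higher, 1 lower) and 1 to 14 when a library was left out (1 to 9 higher, 0 to 5 lower). Over all genes these settings called 967 of 19064, 1457 of 38108, 165 of 23457, and between 72 of 19696 and 1080 of 20088. With glmTreat the carrier count was 0 (0 higher, 0 lower), and 9 of all 19064 genes were called. In edgeR's test against no change, 21 of 59 carriers had an unadjusted p under 0.05, against 3175 of 19064 genes. The limma-voom fit called 6 carriers and 433 of all genes. The pathway list had 24 SW genes, 9 with glmTreat and 15 to 33 with a library left out. In PEO4 it had 4 genes, 9 with DESeq2, 14 with no filter, 1 with all 12 libraries, 0 with glmTreat and 0 to 12 with a library left out. The cause was not tested.

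Replicate numbers are shared between groups, but the labels do not say that they pair the libraries, so the main fits took no pairs. The correlation of deviations of libraries with the same number was 0.06, 0.72 and 0.63 for the SW lines. For PEO4 it was 0.34, -0.10 and 0.53. Whether the numbers mark a shared batch was not tested. With the replicate number as a block, 40 of 69 tested SW carriers were called (15 higher, 25 lower) and 22 of 59 PEO4 carriers (15 higher, 7 lower), and 44 and 18 genes of the pathway list. Over all genes the block called 10667 of 20941 in SW and 2102 of 19064 in PEO4. Among carriers gained were SLC1A5 (edgeR adjusted p 1.53e-05), SLC7A5 (0.00146) and SLC38A1 (0.00153) in SW, and SLC2A1 (0.000854) and SLC16A3 (0.00501) in PEO4. SW480 replicate 1, PEO4 control replicate 2 and TGF-β replicate 2 did not correlate best with their own number.

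The sign of 3 changes near 0 turned. SLC16A1 in SW620 went from -0.06 to between -0.30 and 0.24 with a library left out, and was above 0 without SW480 replicate 1 (0.08) or 3 (0.10) or SW620 replicate 2. SLC3A2 went from 0.00 to between -0.41 and 0.39 with a library left out, above 0 without SW480 replicate 1 or 3 or SW620 replicate 1 or 2, and to 0.16 without replicate 2 of both lines. SLC1A5 in PEO4 went from -0.04 to between -0.079 and 0.0072 with a library left out, above 0 without TGF-β replicate 3 or control replicate 1. Depth limits carriers near the floor of 3 counts, where absence was not shown.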
